A study of Mus musculus with 12 samples.

Results

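Mcu, Micu2, Letm1 and Ppif are nuclear genes whose proteins govern how calcium and other ions cross the inner mitochondrial membrane. They were chosen by name from the deposited table of read counts, where they take up 4 of 23457 rows. Mcu, Letm1 and Ppif were found under those symbols and Micu2 under its older symbol Efha1, which the RefSeq gene table lists as a synonym.

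The hearts came from adult mice of the C57BL/6J strain background, and the study asked what loss of Parkin, a ubiquitin ligase that tags damaged mitochondria for removal, does to the adult heart. By the labels, the noninduced group was 6 floxed mice without Cre, and the Parkin KO group was 6 floxed mice carrying MERCreMer, a tamoxifen-activated Cre recombinase. Both groups thus share the floxed alleles, and the labels give both the same time point, 9 to 10 weeks after tamoxifen. Polyadenylated RNA was taken from the ventricular apex per the extraction protocol, although the tissue label reads whole heart. By the labels, which Esr1 reads of 2 noninduced libraries go against, the recombinase was carried by the Parkin KO group alone, so what the recombinase does and what Parkin loss does cannot be told apart. The labels used here do not name the promoter that drives it.

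Calcium enters the mitochondrial matrix through the uniporter, a channel in the inner membrane whose opening is set by regulatory subunits that sense calcium outside the matrix. In the beating heart this uptake links contraction to energy supply, because several matrix dehydrogenases are activated by calcium. When the matrix is overloaded, a large unselective conductance called the permeability transition can open, which collapses the membrane potential and can kill the cell.

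Total counts ran from 11610507 to 16884516 per library. Cardiomyocyte markers were high throughout, with Myh6, the alpha myosin heavy chain, at no less than 22344 CPM (read counts scaled for library size by edgeR's TMM method). Esr1, the estrogen receptor gene whose sequence MERCreMer carries in part, had 1552 to 4679 CPM in Parkin KO libraries. It had 558 CPM in the library labelled noninduced 1 and 962 CPM in the library labelled noninduced 3, against at most 64.8 CPM in the other noninduced libraries. These 2 libraries go against their labels, which were kept, and each direction between the groups rests on those labels. Parkin KO libraries 2, 5 and 6 were male by their Y-linked reads, and noninduced 3 held both Y-linked and Xist reads. No noninduced library was male alone. Fits with sex as a term leave out noninduced 3, so they compare the groups in the 8 female libraries only. The 7 atrial and conduction markers were all lower in Parkin KO, at a median log2 fold change of -4.18. Of these, 6 had an unadjusted edgeR p under 0.05, against 5.54% of tested genes lower at that level. Their summed level ran from 138 to 5992 CPM in noninduced and from 175 to 1558 CPM in Parkin KO libraries. Lower markers were 6 of 8 for fibroblasts, 5 of 6 for smooth muscle, and 4 of 7 each for endothelium and macrophages. The part of sampled tissue in the differences below was not tested.

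None of the 4 genes differed between the groups beyond the test's threshold, an adjusted p under 0.05 in edgeR's quasi-likelihood test, and neither did any other of the 13050 genes tested, so the share called was 0%. At an unadjusted p under 0.05, Letm1 was among the genes higher in Parkin KO hearts (5.82% of all tested genes) and Ppif among those lower (5.54%). These were 2 of the 4 genes, where 11.4% of tested genes reached that level in either direction. None of the 4 had groups that did not overlap, which held for 0.345% of tested genes. Mcu and Micu2 had nearly the same mean level in both groups. In RNA of bulk tissue, fewer cells of a type and less RNA per cell cannot be told apart.

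**Figure D1:**
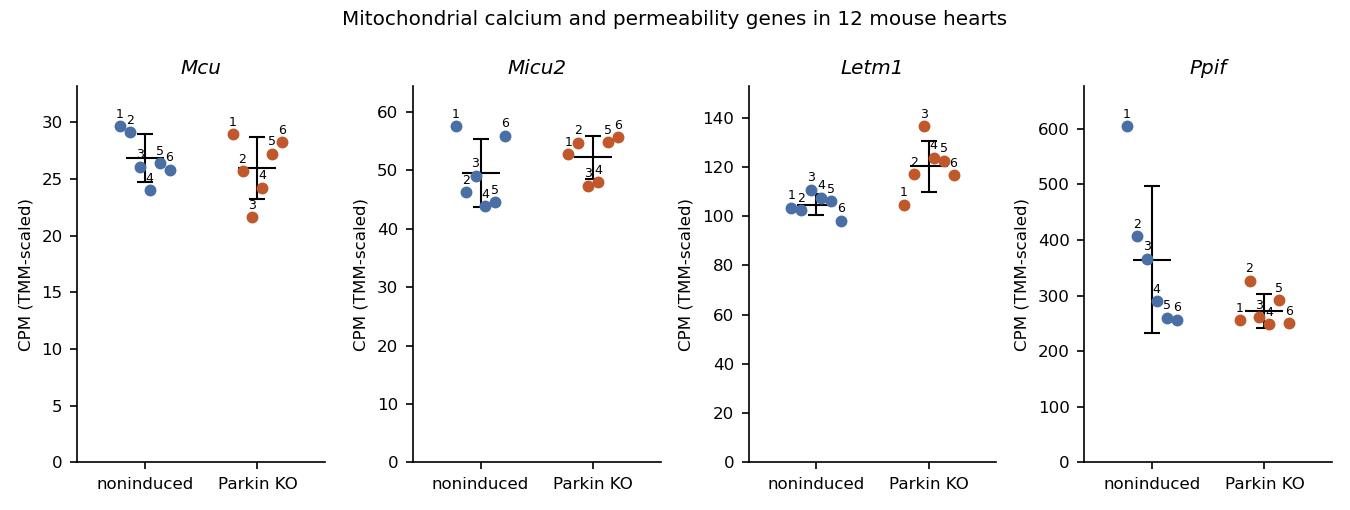
Each panel plots 1 gene's CPM in every library, with noninduced hearts beside Parkin KO hearts and the mean and SD of each group. The groups overlap in all 4 panels, and for Ppif noninduced 1 lies far above the other libraries, at 604 CPM.

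Mcu encodes the pore-forming subunit of the uniporter. The gene lies on the minus strand of chromosome 10 from 59446984 to 59616692 (GRCm38, GENCODE), and no other gene shares its exon bases. It was read 307 to 471 times per library. In noninduced hearts Mcu ran from 23.99 to 29.6 CPM with a median of 26.3 CPM, and in Parkin KO hearts from 21.6 to 28.9 CPM with a median of 26.5 CPM. The ranges overlapped for the most part, with Parkin KO 3 lowest and noninduced 1 highest. The means were 26.8 ± 2.14 CPM and 25.99 ± 2.73 CPM (SD, n = 6 each). Parkin KO hearts had 0.969 times the noninduced level (95% confidence interval 0.85 to 1.11, edgeR adjusted p = 0.846). Without the noninduced libraries labelled 1 and 3, the log2 fold change of Mcu went from -0.05 to -0.03. With sex as a term, in the fit without noninduced 3, it was -0.11. It was 0.01, on the other side of zero, without noninduced 1 and 2, the libraries with the most mitochondrial transcripts.

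The bases before the Mcu start are shown because Mcu codes for the channel itself and stayed within narrow limits in all libraries. They are from RefSeq (GRCm38.p6, chr10:59616693-59616942, minus strand) and read 5′ to 3′, with capitals on the matches to the motifs searched.
Mcu: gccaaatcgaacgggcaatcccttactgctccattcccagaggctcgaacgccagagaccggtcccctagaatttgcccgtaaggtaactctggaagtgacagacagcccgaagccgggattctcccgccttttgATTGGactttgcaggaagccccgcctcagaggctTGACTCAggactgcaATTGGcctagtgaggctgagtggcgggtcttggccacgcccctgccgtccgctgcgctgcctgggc
The capitals mark TGACTCA, the AP-1 site, at position -81 from the RefSeq start, and CCAAT read on the opposite strand as ATTGG in 2 places. TGACTCA was found in 4.46% and CCAAT in 33.8% of 32851 promoters of the same 250-base length, with both strands searched. GGGCGG, the GC box, had no match here, against 32.7% of promoters. These matches describe the letters and no binding was measured.

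Micu2 encodes an EF-hand protein of the intermembrane space that helps hold the uniporter shut at low calcium. It lies on the minus strand of chromosome 14 from 57916261 to 57999262. Micu2 ran from 43.9 to 57.5 CPM in noninduced hearts, with a median of 47.7 CPM, and from 47.3 to 55.6 CPM in Parkin KO hearts, with a median of 53.8 CPM. Every Parkin KO value lay inside the noninduced range. Noninduced 1 and 6 stood above all Parkin KO hearts and 3 other noninduced hearts stood below all of them. The means were 49.5 ± 5.87 CPM and 52.2 ± 3.65 CPM (SD, n = 6 each). Parkin KO hearts had 1.05 times the noninduced level (95% confidence interval 0.927 to 1.20, edgeR adjusted p = 0.713). The log2 fold change of Micu2 was 0.08, was 0.12 without noninduced 1 and 3, and was -0.01 with sex as a term in a fit that leaves out noninduced 3. The direction of Micu2 is therefore not fixed by these libraries.

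Among 7 other genes of the uniporter, 6 had enough reads to test, 4 of them with a fold change above 1, and none passed the test. Their median log2 fold change was 0.04, against 0.01 over all tested genes. Of all tested genes, 52.0% were higher, and 11.4% had an unadjusted edgeR p under 0.05 in either direction. Smdt1 encodes EMRE, the small subunit that couples the pore to its gatekeepers. The mean of Smdt1 was 64.5 ± 5.69 CPM in the noninduced group and 78.0 ± 5.72 CPM in Parkin KO hearts (SD, n = 6 each). Its log2 fold change of 0.27 ± 0.0776 (SE) was the only one of the 6 with an unadjusted p under 0.05 (edgeR adjusted p = 0.417). Smdt1 shares 16.6% of its exon bases with Pheta2, and the libraries keep no strand. Slc25a23, an ATP-magnesium and phosphate carrier that binds the uniporter, was at -0.28 ± 0.131 (log2 fold change, SE). Mcur1, a scaffold for uniporter assembly, was at 0.05, Maip1, which helps mature EMRE, at 0.03, and the regulatory subunit Micu3 at 0.08. Mcub, a pore subunit that lowers channel activity, had 1 to 27 reads per library and was too low to test.

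Levels of different genes were compared per length, in the FPKM values that the authors deposited. Ppif was the highest of the 4 genes at 262 ± 69.2 FPKM in noninduced and 207 ± 17.3 FPKM in Parkin KO hearts (SD, n = 6 each). Letm1 followed at 30.4 ± 2.71 and 35.4 ± 3.29 FPKM. The cyclophilin transcript was thus far more abundant per length than that of the exchanger. Micu2 stood at 22.3 ± 2.81 and 23.9 ± 1.68 FPKM. Mcu was the lowest at 9.53 ± 0.478 and 9.40 ± 1.05 FPKM. The order was the same in both groups. Over all 12 libraries Letm1 ran from 26.9 to 40.3 FPKM and Micu2 from 19.2 to 27.4 FPKM, so these neighbours touched at their edges. Smdt1, at 162 ± 25.1 and 198 ± 17.4 FPKM, lay far above the pore transcript, and Mcub, at 0.567 ± 0.496 and 0.643 ± 0.347 FPKM, far below it.

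**Figure D2:**
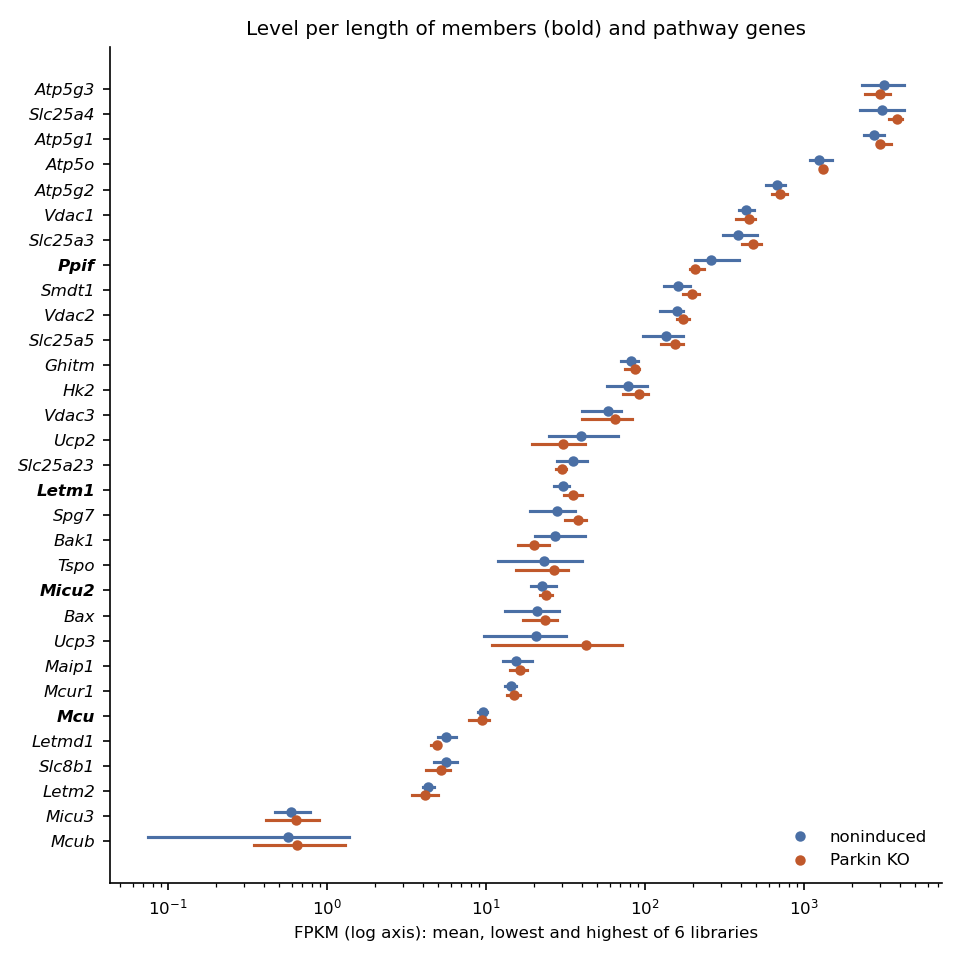
Deposited FPKM of the 4 genes (bold) and of uniporter, efflux and permeability genes is plotted on a log axis, with a point for each group's mean and a bar from its lowest to its highest library (n = 6 each). Among the 4 genes and the uniporter genes, Ppif and Smdt1 stand above 100 FPKM, and Mcub and Micu3 lie below or near 1 FPKM. Some permeability genes stand above Ppif, such as Slc25a4 at a mean of 3094 FPKM in noninduced and 3865 FPKM in Parkin KO hearts.

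Within a library, the ratio of 2 genes' counts does not depend on how libraries are scaled. For each Mcu read there were 1.85 ± 0.202 reads of Micu2 in noninduced hearts and 2.02 ± 0.129 in Parkin KO hearts (SD, n = 6 each). The ratio ran from 1.59 to 2.17 and from 1.82 to 2.19, so the gatekeeper-to-pore ranges overlapped. Letm1 had 3.92 ± 0.398 and 4.70 ± 0.928 reads per Mcu read. Its highest ratio, 6.31, was in Parkin KO 3, the library lowest in Mcu. Ppif had 13.4 ± 3.89 and 10.6 ± 1.61 reads per Mcu read, with the highest, 20.4, in noninduced 1.

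Letm1 encodes an inner-membrane protein with a leucine zipper and EF-hands that exchanges cations for protons. It is known for mitochondrial potassium and volume control and has also been described as a calcium exchanger. The gene lies on the minus strand of chromosome 5 from 33739673 to 33782817. In noninduced hearts Letm1 ran from 98.1 to 111 CPM with a median of 105 CPM, and in Parkin KO hearts from 105 to 136 CPM with a median of 120 CPM. Parkin KO hearts stood above all noninduced hearts in 5 of 6 cases, and Parkin KO 1 was the exception. The means were 105 ± 4.40 CPM and 120 ± 10.5 CPM (SD, n = 6 each). The log2 fold change was 0.20 ± 0.0726 (SE), a level 1.15 times that of noninduced hearts (95% confidence interval 1.03 to 1.28), and it did not pass (edgeR adjusted p = 0.424). In FPKM, 4 of 6 Parkin KO hearts stood above all noninduced hearts. Letm1 stayed at 0.20 on the log2 scale without noninduced 1 and 3. It was at 0.23 with sex as a term, in the fit without noninduced 3.

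**Figure D3:**
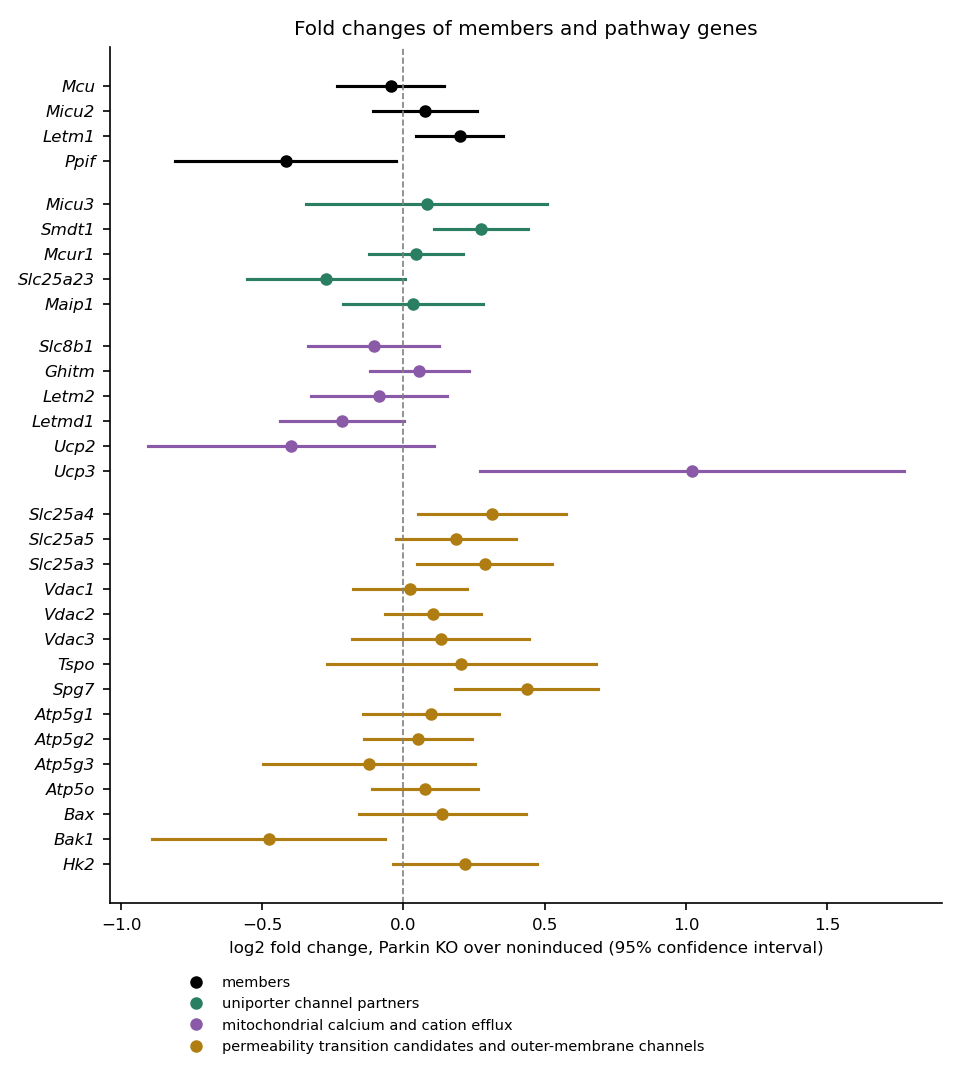
Log2 fold changes of Parkin KO against noninduced hearts are plotted with 95% confidence intervals for the 4 genes and tested genes of the uniporter, efflux and permeability lists. Letm1 lies above 0 and Ppif below it, at 0.20 and -0.42, and no gene shown passed the adjusted threshold.

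A list of 6 genes drawn up for cation and calcium efflux also held the uncoupling proteins Ucp2 and Ucp3. In it, 2 genes were higher, Ucp3 among them, and 4 lower, Ucp2 among them, in Parkin KO hearts. The median log2 fold change of the list was -0.10, and none passed. Letm2, the paralog of Letm1, was at -0.09 ± 0.113 (log2 fold change, SE), and Letmd1, which carries a LETM domain, at -0.22 ± 0.103. Slc8b1, the mitochondrial sodium-calcium exchanger, was at -0.10 ± 0.109. Ghitm, an inner-membrane protein described as a calcium and proton exchanger, was at 0.06 ± 0.082. None of these 4 genes had an unadjusted p under 0.05. Of the 6 genes in the list, only Ucp3 was at that level, and it was higher in Parkin KO hearts. Among all tested genes, 11.4% were at that level in either direction. The uncoupling protein Ucp3 averaged 48.7 ± 19.0 CPM in the noninduced group and 99.0 ± 45.0 CPM in the Parkin KO group (SD, n = 6 each). Its paralog Ucp2 averaged 163 ± 57.9 CPM and 124 ± 38.7 CPM. Their log2 fold changes were 1.02 ± 0.352 and -0.40 ± 0.237 (SE), with edgeR adjusted p of 0.417 and 0.495.

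Ppif encodes cyclophilin D, a matrix peptidyl-prolyl isomerase that makes the permeability transition easier to open and is the mitochondrial target of cyclosporin A. It lies on the plus strand of chromosome 14 from 25694154 to 25700468. Ppif ran from 257 to 604 CPM in noninduced hearts, with a median of 328 CPM, and from 249 to 327 CPM in Parkin KO hearts, with a median of 259 CPM. Noninduced 1, 2 and 3, at 604, 407 and 366 CPM, stood above every Parkin KO heart, while the other 3 noninduced hearts, at 257 to 290 CPM, lay within the Parkin KO range. The means were 364 ± 132 CPM and 273 ± 30.9 CPM (SD, n = 6 each), and all 6 Parkin KO hearts lay below the noninduced mean. The log2 fold change was -0.42 ± 0.183 (SE), a level 0.749 times that of noninduced hearts (95% confidence interval 0.571 to 0.982). It did not pass the test (edgeR adjusted p = 0.428).

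The size of the Ppif difference rested on few noninduced libraries. Without noninduced 1 the log2 fold change was -0.23, without noninduced 1 and 3 it was -0.17, and without noninduced 1 and 2 it was -0.12. With sex as a term, in the fit without noninduced 3, it was -0.51. Across methods on all 12 libraries, the Ppif log2 fold change was -0.30 from FPKM with limma, -0.36 with total-count scaling and -0.44 with DESeq2. Ppif shares 18.3% of its exon bases with the antisense gene Ppifos, whose row held at most 65 reads, or 1.35% of the reads of Ppif in any library. Because the counting mode is not given, this row does not show how many reads of the shared bases Ppif gained or lost.

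The bases before the Ppif start are shown because Ppif varied the most of the 4 genes. They are from RefSeq (GRCm38.p6, chr14:25693920-25694153, plus strand), end where the first GENCODE exon begins, and carry capitals on matches to the motifs searched.
Ppif: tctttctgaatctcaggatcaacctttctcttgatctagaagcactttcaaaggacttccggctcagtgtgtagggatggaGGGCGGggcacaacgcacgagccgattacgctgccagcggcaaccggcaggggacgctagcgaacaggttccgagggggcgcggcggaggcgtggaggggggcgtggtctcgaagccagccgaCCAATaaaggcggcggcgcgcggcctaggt
The capitals mark GGGCGG at position -169 and CCAAT at position -46 from the RefSeq start. Both motifs are common, in 32.7% and 33.8% of promoters. The Ppif window and the Mcu window above it both hold a CCAAT match, and the AP-1 letters of Mcu are not in the Ppif window. No match to TATAAA (12.4% of promoters), AAGGTCA (4.08%), TGACGTCA (1.55%) or CACGTG (6.02%) was found in the windows of the 4 genes. The GC box had 3 matches before Letm1 and 1 before Micu2. CCAAT also had 1 match before Letm1, at position -53, and none before Micu2.

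Replicate variation was higher for Ppif than for the other 3 genes. Its biological coefficient of variation, edgeR's estimate of replicate spread within groups, was 22.9%, above 94.2% of 344 genes of like level, whose median was 14.5%. For Letm1 it was 10.6%, above only 8.5% of 1000 genes of like level. Mcu and Micu2 were both at 11.8%. The spread of Ppif was mostly in noninduced hearts, with a coefficient of variation of CPM of 36.3%, against 11.3% in Parkin KO hearts.

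Ppif was related to the share of counts from mitochondrial DNA, which ran from 6.25% to 15.4% in noninduced and from 4.79% to 8.98% in Parkin KO libraries. Over 12 libraries Pearson's r was 0.89 (permutation p = 0.00024, adjusted p = 0.00192 over 8 relations) and Spearman's rho was 0.77 (permutation adjusted p = 0.0204). Noninduced 1 and 2, at 15.2% and 15.4%, held the largest shares, and r without them was 0.71. It was 0.88 within noninduced hearts (exact permutation p = 0.0153, n = 6) and 0.67 within Parkin KO hearts (exact permutation p = 0.124, n = 6). From FPKM, r of Ppif with the mitochondrial share was 0.86. The relations with library measures were chosen after seeing the data. How many other genes relate to this share as strongly is not given here, but 245 genes had r of at least 0.9 with Ppif itself. Without noninduced 1 they numbered 57. The part of the mitochondrial share in the difference between the groups was not tested.

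Letm1 was related to the nuclear genes of oxidative phosphorylation, the respiratory chain and ATP synthase. All 20 genes of that list were higher in Parkin KO hearts, 11 of them at an unadjusted p under 0.05, with a median log2 fold change of 0.23 and none past the adjusted threshold. Over all tested genes 52.0% were higher, and 5.82% were both higher and at an unadjusted p under 0.05. Their summed level ran from 12971 to 18938 CPM in noninduced and from 17353 to 19496 CPM in Parkin KO libraries. Over 12 libraries r of Letm1 with their mean score was 0.71 and rho was 0.80 (permutation adjusted p = 0.0272 and 0.0204). From FPKM, r of Letm1 with the score was 0.66 (permutation adjusted p = 0.0503), just short of the threshold. Without noninduced 2 and 6, the libraries farthest from the median score, r was 0.54. Within noninduced hearts r was 0.91 (exact permutation p = 0.0167, n = 6) and within Parkin KO hearts 0.12 (exact permutation p = 0.86, n = 6), so the relation was not seen in both groups. The 11 cardiomyocyte markers were all higher in Parkin KO hearts, at a median of 0.13 on the log2 scale, and the part of this in the Letm1 difference was not tested.

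**Figure D4:**
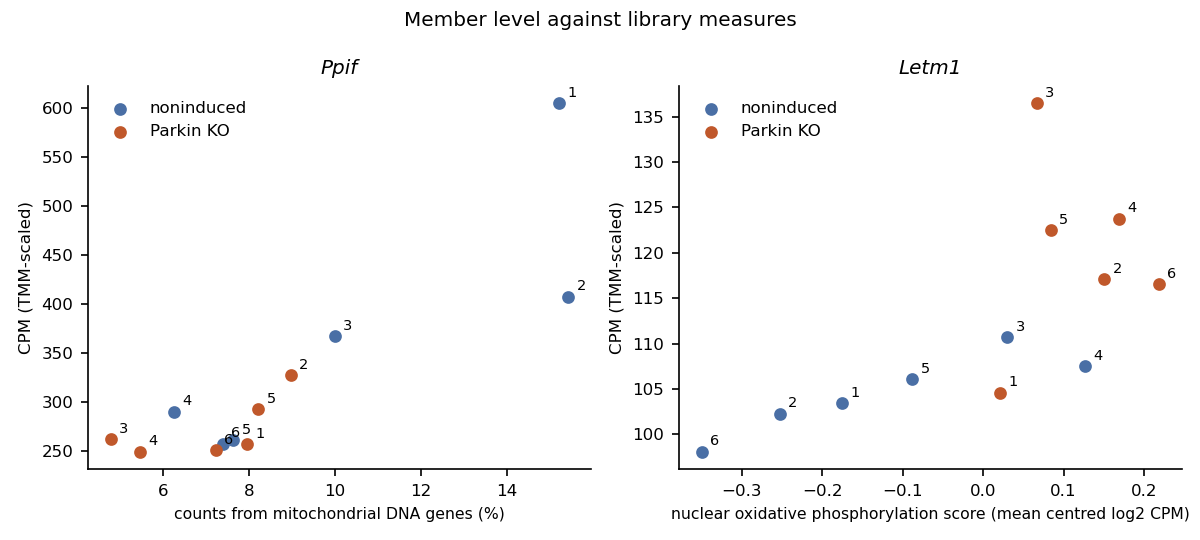
The CPM of Ppif is plotted against the percent of counts from mitochondrial DNA, and that of Letm1 against the mean score of 20 nuclear oxidative phosphorylation genes, with 1 point per library, numbered by replicate. Noninduced 1 and 2 lie at the high end of the mitochondrial share, at 15.2% and 15.4%.

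Mcu also had a positive r with the mitochondrial share, 0.73 (permutation adjusted p = 0.0272), which passed the threshold with TMM scaling only. It was 0.21 from FPKM and 0.18 from CPM scaled to total counts. For Letm1 and this share, r was -0.54 with TMM (permutation adjusted p = 0.142), -0.86 from FPKM and -0.86 from total-count CPM. The r of Micu2 changed sign between scalings. Of the 4 genes' relations with this share, only that of Ppif held its direction and its side of the threshold under all 3 scalings.

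Among the 4 genes themselves, no pair of the 6 passed the threshold over 12 libraries after adjustment with TMM-scaled log2 CPM. Other choices gave calls by Pearson's r alone. Mcu with Letm1 passed as deviations from group means (r = -0.72, permutation adjusted p = 0.0494). Letm1 with Ppif passed from FPKM (r = -0.71, permutation adjusted p = 0.0402). Spearman's rho in these settings was -0.69 and -0.63, and neither passed (permutation adjusted p = 0.0987 and 0.187). With TMM the largest was Mcu with Letm1, at r = -0.62 and rho = -0.57 (permutation p = 0.0308 and 0.0548, adjusted p = 0.185 and 0.329). Without noninduced 1 and Parkin KO 3, the ends of the Mcu range, whose removal by itself can weaken a correlation, this r was -0.25. It was -0.88 within Parkin KO hearts and -0.31 within noninduced hearts (exact permutation p = 0.0181 and 0.532, n = 6 each, adjusted p = 0.108 and 0.638).

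Genes that tracked each of the 4 most closely were ranked by Pearson's r of log2 CPM over the 12 libraries, as a description. All values of a library share its depth and scaling. For Mcu they were Ctnnd1, the catenin p120, at r = 0.91, the small GTPase Rac1 at 0.89 and Msl3 at 0.89. For Micu2 they were Sco1, a copper chaperone of cytochrome c oxidase, at 0.92, Pstpip2 at 0.86 and Xpot, a transfer RNA exportin, at 0.85. Those of Letm1 were the corepressor Ctbp1 at 0.95, Plekhh3 at 0.94 and Ndufs7, a complex I subunit, at 0.94. Ppif had 245 genes with r of at least 0.9, against 1 for Mcu, 1 for Micu2, 10 for Letm1 and a median of 3 over all 9702 genes ranked. Its closest were Ylpm1 at 0.98, Ctage5 at 0.98 and Wbp11, a splicing factor, at 0.98. Without noninduced 1, 57 genes reached 0.9 with Ppif.

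Beyond Ppif, 15 genes proposed as parts or regulators of the permeability transition or as outer-membrane channels were tested. Of these, 13 were higher and 2 lower in Parkin KO hearts, at a median log2 fold change of 0.13. Over all tested genes 52.0% were higher. The 20 nuclear oxidative phosphorylation genes were all higher, at a median of 0.23, so the direction was not particular to the permeability list. None passed. Spg7, the paraplegin protease of the inner membrane, averaged 68.1 ± 12.6 CPM in the noninduced group and 92.2 ± 9.82 CPM in the Parkin KO group (SD, n = 6 each). Its log2 fold change was 0.44 ± 0.118 (SE, edgeR adjusted p = 0.417). Slc25a4, the heart isoform of the adenine nucleotide translocase, stood at 3094 ± 770 and 3865 ± 273 FPKM, with a log2 fold change of 0.31 ± 0.123. Slc25a3, the phosphate carrier, was at 0.29 ± 0.112, and Atp5g3, a ring subunit of ATP synthase, at -0.12 ± 0.176. Bak1, a pore-forming protein of the outer membrane, was the only other gene with a lower level and is named after its values were seen. It was at -0.48 ± 0.193 (edgeR adjusted p = 0.424) and shares 25.5% of its exon bases with Ggnbp1. For each Slc25a4 read there were 0.133 ± 0.0676 reads of Ppif in noninduced and 0.076 ± 0.0125 in Parkin KO hearts, and the ranges overlapped.

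The 11 genes that pass calcium from the endoplasmic reticulum to mitochondria had 8 higher and 3 lower, a median log2 fold change of 0.07, and none at an unadjusted p under 0.05. Hspa9, the matrix chaperone mortalin, which bridges the receptor channel and the outer membrane, was at 0.20 ± 0.0997 (SE). Vapb, a tether protein of the endoplasmic reticulum, was at 0.12 ± 0.0708, and Mfn2, a mitofusin, at 0.08 ± 0.0844.

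The matrix dehydrogenases that calcium activates, and their regulators, had 8 of 10 genes higher in Parkin KO hearts and a median log2 fold change of 0.12. None passed, and 4 had an unadjusted p under 0.05, all higher. Over all tested genes 52.0% were higher, and 5.82% were higher at that level. All 20 nuclear oxidative phosphorylation genes were higher, 11 of them at that level. Pdha1, the catalytic subunit of pyruvate dehydrogenase, was at 0.29 ± 0.0985 (SE), although 16.1% of its exon bases are shared with Map3k15. Idh3b, a subunit of isocitrate dehydrogenase, was at 0.28 ± 0.102. The most abundant of these genes were Ogdh, of the oxoglutarate dehydrogenase complex, at 0.03 ± 0.127, and Idh3g, at -0.10 ± 0.165. The count of higher genes went to 5 without noninduced 6.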

How the data were processed

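Polyadenylated RNA of 12 mouse hearts was sequenced as single-end reads that do not keep strand, per the labels' protocols. The authors deposited whole read counts per gene, and a table of FPKM values, which are scaled for depth and length. Bowtie2, TopHat2 2.0.10, HTSeq and Cufflinks 2.1 are named with build mm10, per the submitters' processing notes. The annotation, like the counting mode, is not given in the sources used here. Table columns headed wt were assigned to noninduced hearts by their number.

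Counts were tested in R 4.3.3 with edgeR 4.0.16 (TMM, filterByExpr, glmQLFit and glmQLFTest, two-sided, group term only, Benjamini-Hochberg over 13050 genes, threshold 0.05). Standard errors and 95% intervals were derived from the estimate and its F statistic and are approximate. One count was worth 0.0547 to 0.0947 CPM, which limits genes of few reads such as Mcub and Micu3. The code was tested on simulated data. DESeq2 1.42.0 on counts and limma 3.58.1 on log2(FPKM + 1) were alternatives. Correlations used 100000 resamples, or all 720 orders within a group of 6.

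The genes, lists and motifs were chosen with earlier results of these data known. Genes named were the 4, the uniporter and efflux genes, 2 by p and 2 by FPKM in each other list, and 3 of most alike pattern. Bak1 falls outside this rule. The relations with library measures, and the fits without noninduced 1 and 2, were chosen after seeing the data. The labels number the replicates as separate hearts. Positions are GENCODE, GRCm38. The gene targeted in the knockout, and 1 of the uniporter genes that were counted, are not reported here.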

Additional observations from a re-analysis of the deposited data

Results flagged for a closer look

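The deposited FPKM of Ppif in noninduced 1 was 391.1, against 206 to 271 in the other noninduced hearts. Its gap to the nearest other heart was 0.653 of the group's whole range, above the 95% critical value of Dixon's test for 6 samples. Chance flags about 1 in 20 groups, and 22 groups were tested. Noninduced 1 also had 558 CPM of Esr1 and 15.2% of counts from mitochondrial DNA, and the part of either in the Ppif value was not tested.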

How the results depend on the processing

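Without any one library, 0 to 0 genes passed the adjusted threshold, and the log2 fold changes ran from -0.09 to -0.01 for Mcu, 0.03 to 0.11 for Micu2, 0.15 to 0.24 for Letm1 and -0.51 to -0.23 for Ppif, with the lowest size of Ppif without noninduced 1. With the replicate block, 0 genes passed, and Mcu was at -0.05, Micu2 at 0.08, Letm1 at 0.20 and Ppif at -0.35. Same-numbered libraries did not deviate together (correlations of -0.10 to 0.17, 1 of 6 closest to its own number), so the numbers were not taken to pair hearts. DESeq2 called 10 genes, none of them among the 4, and edgeR called 1 gene without noninduced 1 and 3. Reversed values were Mcu at 0.0104 without noninduced 1 and 2, and Micu2 at -0.00733 with a sex term and at -0.00708 in female libraries alone. Both Micu2 fits compare the groups in the same female libraries and count as a single check. Higher genes without one library numbered 3 to 5 of the uniporter, 2 to 2 of efflux, 11 to 14 of the permeability, 7 to 9 of the reticulum, 5 to 8 of the dehydrogenase and 5 to 9 of the cyclophilin lists. Without noninduced 1 and 2 the reticulum list had 5. Cyclophilins had 9 without noninduced 6 or Parkin KO 3. Between Mcu and Letm1, r was -0.72 as deviations from group means, past the threshold. From FPKM, r was -0.0835 for Mcu and Ppif, 0.17 for Micu2 and Letm1, -0.27 for Micu2 and Ppif and -0.71 for Letm1 and Ppif, the last past the threshold. Spearman's rho did not pass in either case (permutation adjusted p = 0.0987 for Mcu and Letm1, and 0.187 for Letm1 and Ppif). Letm1 and Ppif had r of 0.0542 within noninduced hearts and 0.0220 as deviations. Micu2 had r of -0.28 and -0.29 with the mitochondrial share, and 0.0246 and 0.0365 with the oxidative phosphorylation score, from FPKM and from total-count CPM. Letm1 with this score was 0.66 from FPKM (permutation adjusted p = 0.0503). The cause of these shifts was not tested.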

Other observations

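The cyclophilins other than Ppif, which are peptidyl-prolyl isomerases outside the matrix for the most part, had values in both directions. Of 14 tested, 5 were higher and 9 lower in Parkin KO hearts, none passed, and the median log2 fold change was -0.02. Among all tested genes, 52.0% were higher, and 11.4% had an unadjusted edgeR p under 0.05 in either direction. Ppil1, a cyclophilin of the spliceosome, was the only one of the 14 at that level. Its means were 22.7 ± 4.18 CPM in the noninduced and 28.3 ± 3.76 CPM in the Parkin KO group (SD, n = 6 each, log2 fold change 0.32, edgeR adjusted p = 0.424). Nktr, a cyclophilin with a serine and arginine rich tail, was at -0.19 ± 0.0981 (log2 fold change, SE). The abundant cytosolic cyclophilin Ppia was at -0.0032 ± 0.148, and Ppib, of the endoplasmic reticulum, at 0.17 ± 0.171, with 25.0% of its exon bases shared with Snx22.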
